A study of Rattus norvegicus with 6 samples.

Results

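The trypsinogen genes measured here were Prss1, Prss2, Prss3, Try5 and LOC286960, chosen by gene name from the deposited expression table, which gave 5 genes of 34001. The table placed all 5 in the same trypsin ortholog group, with the Ensembl identifiers ENSRNOG00000032156 (Prss1), ENSRNOG00000032916 (Prss2), ENSRNOG00000031385 (Prss3), ENSRNOG00000045612 (Try5) and ENSRNOG00000013245 (LOC286960). The RNA came from the pancreas of 6 rats of the outbred Sprague-Dawley stock, 2 rats in each of 3 groups, with tissue taken 24 h after surgery. The TP+hucMSC-Exs rats had traumatic pancreatitis, made by an impactor that struck and squeezed the gland at settings of 3 cm2 and 10 kg, and received exosomes, small vesicles that cells shed, which were derived from human umbilical cord mesenchymal stem cells, by tail vein at 10 μg per 100 g of body weight. The TP rats had the same injury and received 1 ml of saline. The control rats had a laparotomy in which the pancreas was only turned over with swabs, and 1 ml of saline. The labels give neither sex nor age. They do not say when the injection was given relative to the injury.

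Trypsinogens are the inactive precursors of trypsin, made in acinar cells and stored in zymogen granules. In the duodenum enteropeptidase removes a short activation peptide, and the trypsin so formed activates the other pancreatic zymogens. Trypsin that forms inside the gland is a classical event of pancreatitis. Within the gland cathepsin B can activate trypsinogen, Spink1 blocks active trypsin, and chymotrypsin C can degrade it.

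The genes lay on chromosome 4 in the RefSeq order LOC286960, Prss3, Try5, Prss2, Prss1. LOC286960 stood apart from the others, beyond 14 T-cell receptor V segments, and RefSeq lists it as 1810009J06Rikl with the synonyms P23 and Try4. P23 is known in rat pancreas as a trypsinogen whose synthesis rises under stimulation by caerulein, a cholecystokinin analogue. The table's protein matches were anionic trypsin for Prss1, Prss2 and Try5, serine protease 3 for Prss3 and trypsin-4 for LOC286960. RefSeq's promoter table (GRCr8) held 3 of the 5 genes. The 150 bases before the annotated start are shown for these 3, because Try5 and Prss2 have similar promoters and dissimilar expression in these libraries. Capitals mark CAGGTG (an E-box), TTTCCC (the TC-box of the acinar factor PTF1) and TATAAA on either strand, and no marked stretches overlap. Prss1 lies at chr4:71331099-71331248 on the + strand, Prss2 at chr4:71244814-71244963 on the + strand, and Try5 at chr4:71183696-71183845 on the - strand.
Try5: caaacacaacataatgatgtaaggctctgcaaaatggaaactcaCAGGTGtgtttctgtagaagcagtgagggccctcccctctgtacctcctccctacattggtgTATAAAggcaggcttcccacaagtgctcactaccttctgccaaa
Prss2: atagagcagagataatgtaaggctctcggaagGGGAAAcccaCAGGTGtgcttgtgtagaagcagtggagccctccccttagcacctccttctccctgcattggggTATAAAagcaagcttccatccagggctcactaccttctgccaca
Prss1: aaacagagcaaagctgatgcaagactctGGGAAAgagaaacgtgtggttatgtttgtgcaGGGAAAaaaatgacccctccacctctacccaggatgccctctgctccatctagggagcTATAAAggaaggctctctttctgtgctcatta

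Over the 250 bases searched upstream, Try5 and Prss2 matched at 79.0% of 229 aligned bases, Try5 and Prss1 at 69.0% of 226, and Prss2 and Prss1 at 63.2% of 231. All 3 promoters held the E-box letters, which in Prss1 lay 181 bases before the start, outside the stretch printed. The TC-box letters were in Prss2 once and in Prss1 at 2 places, and were not in the Try5 window. Of 33469 rat promoters of this length, 15.9% held the E-box letters, 21.97% the TC-box letters and 12.93% the TATA letters. These matches describe letters only.

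Expression was given as TPM, a transcript abundance corrected for gene length whose sum is the same in every library. The sequencing depth behind a TPM value is unknown, and no counting interval could be given. Changes are log2 fold changes of TPM + 0.5 with their standard error (SE) from limma, which understate the change of low genes. In the fit over all 6 libraries the variance was that shared by genes of like abundance. Each SE, and the p-value from it, thus does not measure the spread of the gene's own replicates. Adjusted p-values are Benjamini-Hochberg values over the 11477 genes with a mean of at least 1 TPM, and a gene was called at an adjusted p below 0.05. All 5 trypsinogens were tested. In bulk tissue, fewer acinar cells and less RNA per acinar cell cannot be told apart.

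The libraries were unequal in tissue content. The other acinar enzymes were 17 genes: chymotrypsins, elastases, carboxypeptidases, lipases, a phospholipase, colipase, the amylase Amy1a and the ribonuclease Rnase1. Amy1a reached at most 18.9 TPM and Rnase1 at most 0.78 TPM. Together the 17 genes took 40.9% and 37.6% of all TPM in the TP+hucMSC-Exs rats, 49.4% and 13.2% in TP rats, and 49.9% and 47.7% in control rats. TP replicate 2 was thus the library poorest in acinar transcripts. The summed TPM of 5 fat-cell markers was 26.6 and 34.4 in the TP+hucMSC-Exs rats, 16.6 and 3558 in TP rats, and 15.3 and 31.98 in control rats. For 5 macrophage markers it was 376 and 715 in the TP+hucMSC-Exs rats, 33.7 and 4232 in TP rats, and 8.06 and 114 in control rats. The median gene was shifted by 1.495 (log2) in TP against control, by -0.375 in TP+hucMSC-Exs against TP, and by 1.09 in TP+hucMSC-Exs against control. The part of these differences in the trypsinogen TPM was not tested, and ratios within a library are given beside the TPM. The 3 comparisons shared libraries and 1 pooled variance, to which the TP libraries, the least alike, added most.

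The trypsinogens together made up 18.3% and 16.9% of all TPM in the TP+hucMSC-Exs rats, 18.0% and 4.97% in TP rats, and 25.1% and 24.2% in control rats. The 4 libraries of injured rats, whether treated with exosomes or with saline, all lay below both controls. TP replicate 1 stood between the TP+hucMSC-Exs (treated) libraries, and TP replicate 2 far below them. Group means were 17.6% ± 0.980 in TP+hucMSC-Exs, 11.5% ± 9.21 in TP and 24.6% ± 0.611 in control (SD, n = 2 each). With 2 libraries a side, an exact two-sided permutation test cannot give a p below 0.333. It gave that p for each injured group against control, and 0.667 between the injured groups.

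Prss1, an anionic trypsinogen and the gene of highest mean TPM in the table, stood at 152806 and 139717 TPM in the TP+hucMSC-Exs rats, 161728 and 44279 TPM in TP rats, and 209093 and 203002 TPM in control rats. Both injured groups lay below the controls, and the treated libraries lay inside the range of the TP ones. With limma its log2 fold change was -1.28 ± 0.42 (SE) in TP against control (adjusted p = 0.555). In TP+hucMSC-Exs it was 0.79 ± 0.42 against TP (adjusted p = 1) and -0.50 ± 0.42 against control (adjusted p = 0.800). Prss2, the second anionic trypsinogen, followed the same order, with 7715 and 7076 TPM in the TP+hucMSC-Exs rats, 10162 and 2984 TPM in TP rats, and 13067 and 12152 TPM in control rats. Its log2 fold change was -1.19 ± 0.69 in TP against control (limma adjusted p = 0.555), and it passed in no comparison either. Without TP replicate 2 both genes pointed down in TP+hucMSC-Exs against TP, with log2 fold changes of -0.15 for Prss1 and -0.46 for Prss2 (limma adjusted p = 0.661 and 0.139).

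Prss3, named serine protease 3 in the table, was the trypsinogen furthest below control in TP rats. It stood at 13544 and 11259.9 TPM in the TP+hucMSC-Exs rats, 7186 and 2254 TPM in TP rats, and 27099 and 25354 TPM in control rats. The 3 groups did not overlap, with the treated rats between TP and control. With limma its log2 fold change was -2.70 ± 0.66 in TP against control (adjusted p = 0.0671), just outside the threshold. In TP+hucMSC-Exs it was 1.62 ± 0.66 against TP (adjusted p = 1) and -1.09 ± 0.66 against control (adjusted p = 0.800). Without TP replicate 2 the log2 fold change in TP against control was -1.87. With the trypsinogens taken out of the TPM total Prss3 passed there (limma adjusted p = 0.0108). Over all alternative settings Prss3 stayed outside the threshold in this comparison in 14 and passed in 4. It stayed outside with no variance trend (limma adjusted p = 0.537), median-of-ratios scaling (0.710) and only the groups compared (0.724).

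Try5, matched in the table to a predicted anionic trypsin-2, was high in both TP+hucMSC-Exs rats and low in TP and control rats. Its values were 3547 and 3040.1 TPM in the TP+hucMSC-Exs rats, 31.5 and 8.92 TPM in TP rats, and 90.1 and 80.65 TPM in control rats. No groups overlapped, and the treated mean was 163-fold the TP mean and 38.6-fold the control mean. Against single TP libraries it was 105-fold TP replicate 1 and 369-fold TP replicate 2. With limma Try5 rose in TP+hucMSC-Exs, by 7.56 ± 1.19 on the log2 scale against TP (adjusted p = 2.69e-06) and by 5.26 ± 1.19 against control (adjusted p = 0.0134). In TP against control its log2 fold change was -2.30 ± 1.19 (limma adjusted p = 0.555). The call against control was lost without either control library or either treated library (limma adjusted p of 0.869 to 1), with log2 fold changes of 5.15 to 5.37.

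LOC286960, the P23 trypsinogen, had the same order of groups at a smaller scale. It stood at 4894 and 7559 TPM in the TP+hucMSC-Exs rats, 784 and 186 TPM in TP rats, and 1394 and 1514 TPM in control rats. The TP+hucMSC-Exs libraries lay above all others, and the TP libraries below all others. LOC286960 rose in TP+hucMSC-Exs against TP, by 3.99 ± 0.91 on the log2 scale (limma adjusted p = 0.0179). Against control the log2 fold change was 2.07 ± 0.91 in TP+hucMSC-Exs (adjusted p = 0.800) and -1.92 ± 0.91 in TP (adjusted p = 0.555), and neither passed. The treated replicates differed 1.54-fold from each other, more than those of any other trypsinogen in that group.

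In TP against control, limma called 0 of the 5 trypsinogens higher, against 0.0523% of all tested genes, and 0 lower, against 0%. At an unadjusted p below 0.05, 3 of the 5 were lower, as 0.105% of all tested genes were, and 0 higher, as 3.96% were. All 5 lay below both controls in both TP libraries, as 1.09% of tested genes did, while 23.1% lay above. Of the zymogens that trypsin activates, 5 of 11 also lay below both controls. The trypsin genes Prss3b, LOC312273, AC142181.2 and LOC683849, outside the 5, did so too. In TP+hucMSC-Exs against TP, 2 of 5 were called higher, Try5 and LOC286960, against 0.0523% of tested genes, and 0 lower, against 0.0174%. At an unadjusted p below 0.05, 3 of 5 were higher, Prss3 with Try5 and LOC286960, against 0.758% of tested genes, and 0 lower, against 0.566%. Prss3, Try5 and LOC286960 lay above both TP libraries, as 5.09% of tested genes did, and none of the 5 lay below, as 1.62% did. In TP+hucMSC-Exs against control 1 of 5, Try5, was called higher, against 0.209%, and 0 lower, against 0%. At an unadjusted p below 0.05, 2 of 5 were higher, against 2.85% of tested genes, and 0 lower, against 0.0958%. There 2 lay above both controls, as 86.9% of tested genes did, and Prss1, Prss2 and Prss3 lay below both, as 1.63% did. Relative to the median of all tested genes, the median trypsinogen lay at -3.42 (log2) in TP against control, 1.99 in TP+hucMSC-Exs against TP and -1.59 in TP+hucMSC-Exs against control.

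Which genes were called depended on single libraries and on scaling. The calls of Try5 and LOC286960 in TP+hucMSC-Exs against TP were lost without either TP+hucMSC-Exs library (limma adjusted p of 0.772 to 1), and that of LOC286960 also without either control library (adjusted p = 1). Both calls, and that of Try5 against control, were lost with median-of-ratios scaling, with quantile normalization and with no filter on low values (limma adjusted p of 0.324 to 1). Under these 3 settings the log2 fold changes in TP+hucMSC-Exs against TP were 7.56 to 7.80 for Try5 and 3.99 to 4.56 for LOC286960, no smaller than before, and that of Try5 against control was 3.81 to 5.26. Without TP replicate 1 all 5 trypsinogens were called lower in TP against control (limma adjusted p of 0.000645 to 0.00107), where 1.78% of tested genes were called lower and 91.5% higher. Without TP replicate 2 none of the 5 was called there, and the log2 fold changes were -0.35 for Prss1, -0.31 for Prss2 and -0.89 for LOC286960 (adjusted p = 1 for each), -1.87 for Prss3 (adjusted p = 0.220) and -1.42 for Try5 (adjusted p = 0.334). Without TP replicate 1, Prss1, Prss2 and Prss3 were also called higher in TP+hucMSC-Exs against TP (limma adjusted p of 0.00253 to 0.00758), where 3.62% of tested genes were called higher and 79.5% lower. Without either TP library, Prss2 and Prss3 were called lower and LOC286960 higher in TP+hucMSC-Exs against control (adjusted p of 0.0152 to 0.0284). In those fits 0.479% of tested genes were called lower and 52.1% higher without TP replicate 1, and 0.505% lower and 51.9% higher without TP replicate 2. Leaving out a TP library takes the spread between the TP replicates out of the pooled variance, and the lone TP library is then assumed to vary like the other groups.

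**Figure D1:**
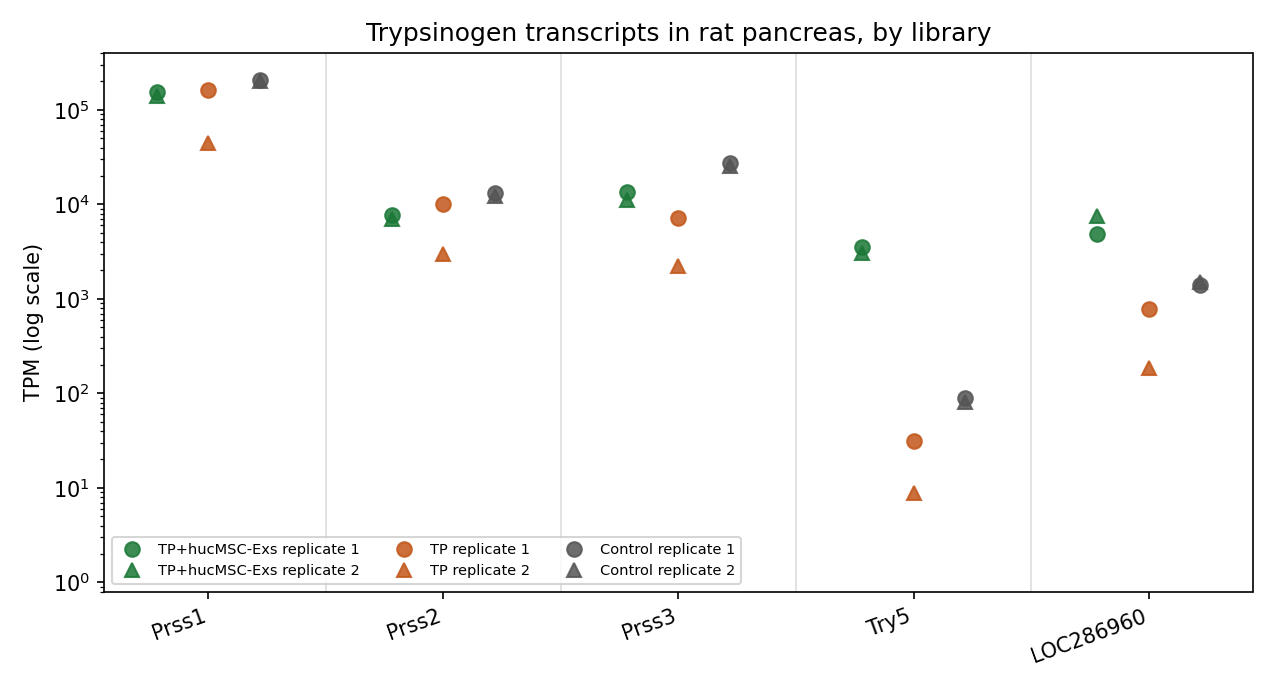
TPM of the 5 trypsinogens on a log axis, with 1 point per library, coloured by group and shaped by replicate. Try5 lies between 3040.1 and 3547 TPM in the TP+hucMSC-Exs libraries and at or below 90.1 TPM in the other 4, while Prss1, Prss2 and Prss3 lie below the controls in all 4 injured libraries.

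Shares within the family leave out how much acinar RNA a library held, and on them the TP replicates lay close together. Prss1 took 83.7% and 82.8% of the family total in the TP+hucMSC-Exs rats, 89.9% and 89.1% in TP rats, and 83.4% and 83.8% in control rats. Its share was thus higher in both TP libraries than in all the others, and treated and control libraries overlapped. The family total here is the sum of the 5 chosen genes and leaves out Prss3b. With the 9 genes of the trypsin ortholog group, Prss3b among them, the Prss1 share was lower in every library. It was then 76.6% and 75.4% in TP+hucMSC-Exs rats, 81.1% and 80.2% in TP rats, and 76.3% and 76.8% in control rats. Prss2 took 4.23% and 4.20% in the TP+hucMSC-Exs rats, 5.65% and 6.0% in TP rats, and 5.21% and 5.02% in control rats, so that it was lowest in treated rats.

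Prss3 took 7.42% and 6.68% of the family total in the TP+hucMSC-Exs rats, 3.99% and 4.54% in TP rats, and 10.8% and 10.5% in control rats. Its share in TP was 0.401 of that in control. Try5 took 1.94% and 1.80% in the TP+hucMSC-Exs rats, 0.0175% and 0.0179% in TP rats, and 0.0359% and 0.0333% in control rats. LOC286960 took 2.68% and 4.48% in the TP+hucMSC-Exs rats, 0.436% and 0.375% in TP rats, and 0.556% and 0.626% in control rats. Try5 and LOC286960 together were thus 4.63% and 6.28% of the family in treated rats, 0.453% and 0.393% in TP rats, and 0.592% and 0.659% in control rats. Shares sum to 100%, so a higher share of one gene lowers the others. The groups did not overlap for 5 of 5 shares in TP against control and in TP+hucMSC-Exs against TP, each with the smallest exact two-sided permutation p the design allows, 0.333. In TP+hucMSC-Exs against control 4 of 5 did not overlap (exact permutation p = 0.333 each), and the Prss1 share did (exact permutation p = 0.667). These are 15 comparisons, with no adjustment of p.

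**Figure D2:**
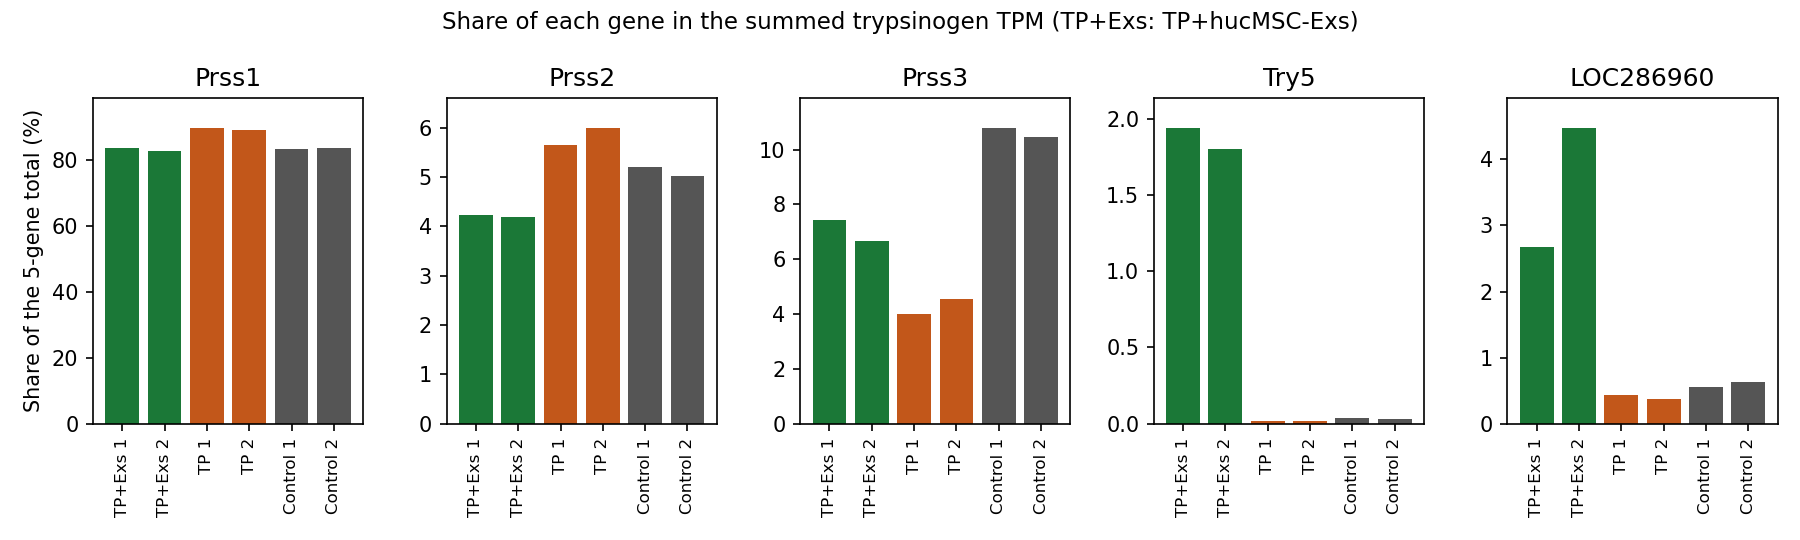
Share of each gene in the summed TPM of the 5 trypsinogens, in percent, with 1 bar per library and a vertical scale of its own, starting at 0, in each panel. Prss3 is lowest in the TP libraries (3.99% and 4.54%), and Try5 and LOC286960 are highest in the TP+hucMSC-Exs libraries.

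The order of abundance also differed. Prss1 led and Try5 was last in all 6 libraries. Prss3 was second in the TP+hucMSC-Exs and control libraries, and Prss2 was second in both TP libraries. In TP+hucMSC-Exs replicate 2 LOC286960 stood above Prss2, which it did in no other library.

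Set against the other acinar enzymes of the same library, the family had a log2 ratio of -1.16 and -1.16 in the TP+hucMSC-Exs rats, -1.46 and -1.41 in TP rats, and -0.99 and -0.98 in control rats. The groups did not overlap, and TP lay lowest. Trypsinogen TPM per TPM of other acinar enzymes were 0.732 of the control level in TP and 0.887 of it in TP+hucMSC-Exs, with an exact permutation p of 0.333 for each. TP replicate 2, which held few acinar transcripts and many fat-cell ones, lay at -1.41 on this measure, against -1.46 in TP replicate 1. The chymotrypsinogen gene Ctrb1 was a large part of the divisor. Of each 1000 TPM it made up 437 and 455 in TP+hucMSC-Exs rats, 357 and 327 in TP rats, and 345 and 328 in control rats. More Ctrb1 in the divisor lowers the ratios of the other genes. Ratios without Ctrb1 were not computed, so treated ratios below control hold for this divisor only.

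Per 1000 TPM of other acinar enzymes, Prss3 stood at 33.1 and 29.98 TPM in the TP+hucMSC-Exs rats, 14.5 and 17.0 TPM in TP rats, and 54.3 and 53.1 TPM in control rats. This was 0.293 of the control level in TP and 0.587 of it in TP+hucMSC-Exs. Try5 stood at 8.68 and 8.09 TPM per 1000 in the TP+hucMSC-Exs rats, 0.0637 and 0.0674 in TP rats, and 0.181 and 0.169 in control rats, a 128-fold higher ratio in TP+hucMSC-Exs than in TP. LOC286960 stood at 11.97 and 20.1 in the TP+hucMSC-Exs rats, 1.59 and 1.41 in TP rats, and 2.79 and 3.17 in control rats, 10.4-fold higher in TP+hucMSC-Exs than in TP. Prss1 and Prss2 lay nearer to control, at 0.784 and 0.834 of it in TP and at 0.883 and 0.730 of it in TP+hucMSC-Exs. The treated values rest on a divisor with a larger Ctrb1 part than in control, and the effect of that part was not tested. On this scale all 5 trypsinogens lay below both controls in TP, as 0.427% of tested genes did, while 22.3% lay above. In TP+hucMSC-Exs 4 of 5 lay above both TP libraries, as 2.61% of tested genes did, and Prss2 lay below, as 1.45% did. Against control 2 of 5 lay above, as 90.3% did, and 3 below, as 1.07% did, with Ctrb1 in the divisor.

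A limma fit of all genes on this scale, chosen after seeing the data, called Prss3 lower in TP against control (log2 fold change -1.77, adjusted p = 2.12e-06) and Prss1 lower (-0.35, adjusted p = 0.00139), the only 2 genes lower, 0.0174% of those tested, while 0.0261% were called higher. It called Try5 (6.97, adjusted p = 0.0260) and LOC286960 (3.38, adjusted p = 0.0128) higher in TP+hucMSC-Exs against TP, where 0.061% of tested genes were called higher and 0.00871% lower. In TP+hucMSC-Exs against control Try5 did not pass on this scale (5.57, adjusted p = 0.583). Variances in this fit were shared among genes of like abundance, and the divisor was itself a sum of abundant acinar genes.

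**Figure D3:**
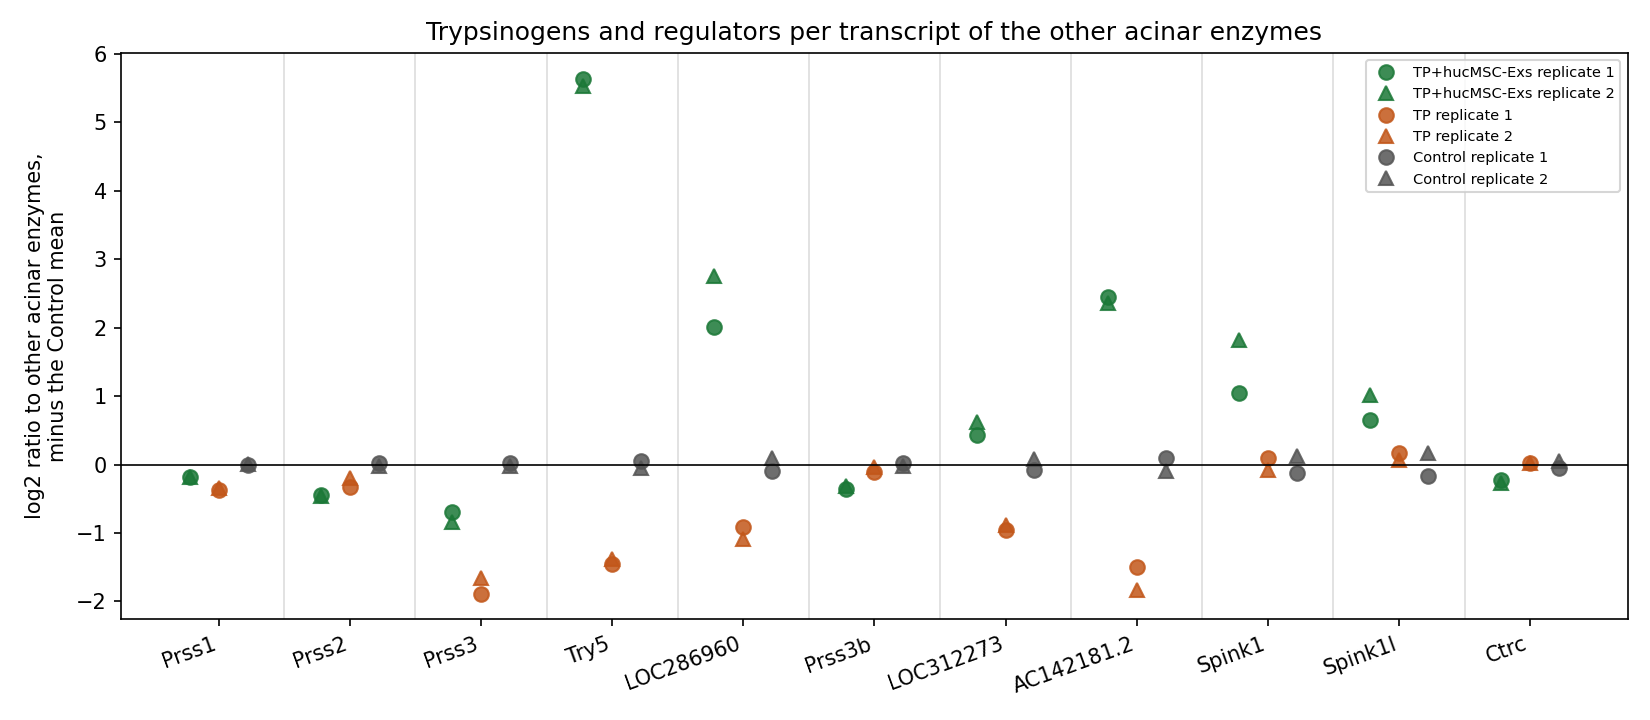
Log2 ratio of each gene to the summed TPM of the other acinar enzymes of the same library, minus the mean of the controls, with 1 point per library. Try5, LOC286960, LOC312273 and AC142181.2 are above 0 in both TP+hucMSC-Exs libraries and below 0 in both TP libraries. Prss1, Prss2, Prss3 and Prss3b are below 0 in all 4 injured libraries. The divisor includes Ctrb1.

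Other trypsin genes of the table differed among themselves in the order of the groups. Prss3b, the cationic trypsinogen, stood at 11926 and 11301 TPM in the TP+hucMSC-Exs rats, 17130.02 and 4821 TPM in TP rats, and 18923 and 17680.5 TPM in control rats. Per other acinar enzyme it was 0.948 of control in TP and 0.790 of control in TP+hucMSC-Exs, where Ctrb1 was a larger part of the divisor. LOC312273, described as trypsin V-A, stood at 4963 and 5244 TPM in the TP+hucMSC-Exs rats, 2292 and 647 TPM in TP rats, and 4275 and 4554 TPM in control rats. These groups did not overlap and also had the order seen for Try5. The log2 fold change of LOC312273 in TP+hucMSC-Exs against TP was 2.07 ± 0.82, and it was not called. AC142181.2, an anionic trypsin-2-like gene, stood at 815 and 709 TPM in the TP+hucMSC-Exs rats, 64.2 and 13.6 TPM in TP rats, and 196 and 163 TPM in control rats. It had the order of groups of Try5 at a smaller scale, with a log2 fold change of 4.65 ± 1.20 in TP+hucMSC-Exs against TP (limma adjusted p = 0.0715). LOC683849, described as similar to anionic trypsin II, stood at 78.8 and 103 TPM in the TP+hucMSC-Exs rats, 35.9 and 4.93 TPM in TP rats, and 76.1 and 67.3 TPM in control rats. Its groups did not overlap and had the order seen for Try5, with a log2 fold change of 2.69 ± 1.33 in TP+hucMSC-Exs against TP (limma adjusted p = 1). Several of these genes are near copies of one another, and reads that fit more than one copy can be split between them, so the split between Try5, AC142181.2, LOC683849 and Prss2 is uncertain.

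The pancreatic trypsin inhibitors Spink1 and Spink1l had their highest TPM in the TP+hucMSC-Exs rats. Spink1, which binds and blocks trypsin in the granule, stood at 1184 and 1861 TPM in the TP+hucMSC-Exs rats, 741 and 176 TPM in TP rats, and 643 and 725 TPM in control rats. Spink1l, a gene related to Spink1, stood at 2146 and 2542 TPM in the TP+hucMSC-Exs rats, 1871 and 465 TPM in TP rats, and 1499 and 1792 TPM in control rats. Neither passed in any comparison, with log2 fold changes in TP+hucMSC-Exs against TP of 2.04 ± 1.01 for Spink1 and 1.32 ± 0.90 for Spink1l (limma adjusted p = 1 for each). Per 1000 TPM of trypsinogens, Spink1 and Spink1l together stood at 18.2 and 26.1 TPM in the TP+hucMSC-Exs rats, 14.5 and 12.9 TPM in TP rats, and 8.54 and 10.4 TPM in control rats. The 3 groups did not overlap on this ratio (exact permutation p = 0.333 for each pair). Of the 10 listed trypsin inhibitors 8 were tested, and limma called 0 in any comparison, while at an unadjusted p below 0.05, 4 were higher in TP+hucMSC-Exs against TP, as 0.758% of tested genes were, and 2 against control, as 2.85% were. Against TP, 6 of the 8 lay above both TP libraries, as 5.09% of tested genes did, and the median log2 fold change of the 8 was 1.68, against -0.375 for all genes. In TP+hucMSC-Exs against control, 7 of the 8 lay above both controls, as 86.9% of tested genes did. Their median log2 fold change there was 1.20, against 1.09 for all genes. Relative to the median gene, Spink1 lay at 0.0267 and Spink1l at -0.582 in that comparison. Spint1, a membrane-bound Kunitz inhibitor, stood at 18.4 and 23.3 TPM in the TP+hucMSC-Exs rats, 2.29 and 1.73 TPM in TP rats, and 2.56 and 2.45 TPM in control rats. A2m, the broad plasma protease inhibitor, stood at 15.8 and 36.8 TPM in the TP+hucMSC-Exs rats, 7.03 and 0.58 TPM in TP rats, and 0 and 0.26 TPM in control rats (limma adjusted p = 0.0746 for TP+hucMSC-Exs against control). Serpina1 (alpha-1-antitrypsin) stood at 20.1 and 33.9 TPM in the TP+hucMSC-Exs rats, 5.99 and 1.56 TPM in TP rats, and 6.46 and 5.95 TPM in control rats. The other tested inhibitors Serpini2, Spint2 and Tfpi2 did not pass either, and Ambp stayed at or below 0.10 TPM.

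Among genes that activate or degrade trypsinogen, 4 of the 5 listed were tested and limma called 0 in any comparison. At an unadjusted p below 0.05, 2 of the 4 were higher in TP against control, as 3.96% of tested genes were, and 2 in TP+hucMSC-Exs against control, as 2.85% were. Their median log2 fold change in TP against control was 2.53, against 1.495 for all genes. Ctsb, the lysosomal protease cathepsin B, stood at 353 and 488 TPM in the TP+hucMSC-Exs rats, 59.8 and 1785 TPM in TP rats, and 27.5 and 38.2 TPM in control rats (adjusted p = 0.555 in TP and 0.406 in TP+hucMSC-Exs, each against control). All 4 injured libraries lay above the controls, and the highest value was that of TP replicate 2, where macrophage markers summed to 4232 TPM. Of all tested genes, 23.1% lay above both controls in TP and 86.9% in TP+hucMSC-Exs. Cathepsins are abundant in macrophages, and the part of those cells in the Ctsb level was not tested. Ctsl, cathepsin L, which can degrade trypsinogen, stood at 256 and 330.5 TPM in the TP+hucMSC-Exs rats, 82.2 and 806 TPM in TP rats, and 45.98 and 57.2 TPM in control rats. Ctsd, cathepsin D, which can process cathepsin B, stood at 122 and 156 TPM in the TP+hucMSC-Exs rats, 38.4 and 868 TPM in TP rats, and 23.95 and 30.7 TPM in control rats. Ctrc, chymotrypsin C, stood per other acinar enzyme at 1.02 of control in TP and at 0.840 of control in TP+hucMSC-Exs, where Ctrb1 was a larger part of the divisor. Tmprss15, the gene of enteropeptidase, was listed at 0 in every library, as were the gut genes Fabp2, Alpi and Defa5. The trypsin receptor gene F2rl1 was below the expression filter, with 1.74 and 2.35 TPM in the TP+hucMSC-Exs rats, 0.20 and 1.11 TPM in TP rats, and 0.04 and 0.09 TPM in control rats.

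**Figure D4:**
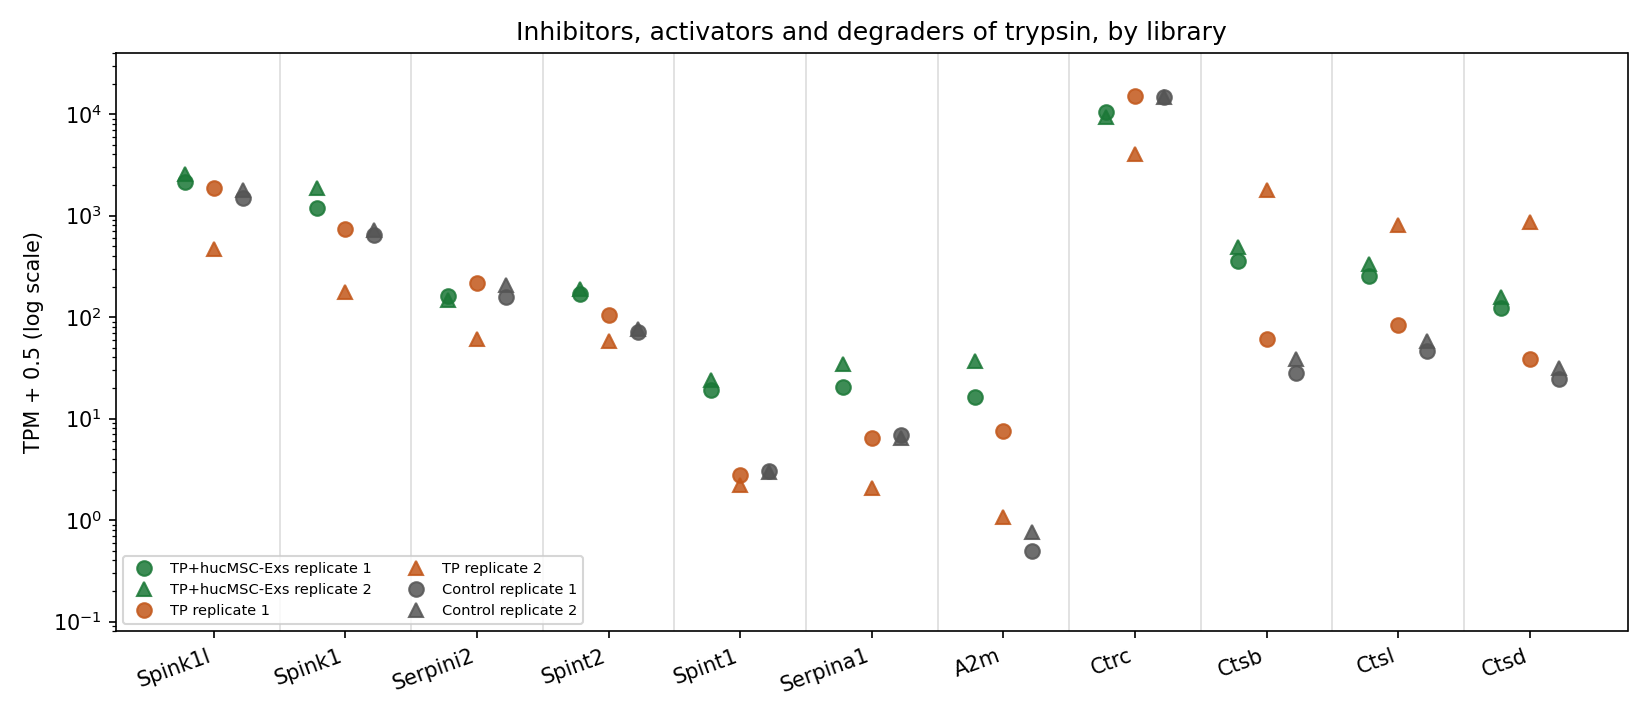
TPM + 0.5 of trypsin inhibitors (Spink1l to A2m) and of proteases that activate or degrade trypsinogen (Ctrc to Ctsd), on a log axis with 1 point per library. Spink1 and Spint1 are highest in the TP+hucMSC-Exs rats, and Ctsb is above the controls in all 4 injured libraries, highest in TP replicate 2 at 1785 TPM. Of all tested genes, 23.1% lie above both controls in TP and 86.9% in TP+hucMSC-Exs.

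Of the 11 zymogens that trypsin activates, limma called 0 in any comparison. At an unadjusted p below 0.05, 2 were lower in TP against control, as 0.105% of tested genes were, and 1 was higher in TP+hucMSC-Exs against TP, as 0.758% were. Their median log2 fold change was -0.94 in TP against control and 0.35 in TP+hucMSC-Exs against TP, where the median of all genes was 1.495 and -0.375. In TP 5 of 11 lay below both controls, as 1.09% of tested genes did. The TP+hucMSC-Exs and TP libraries overlapped for all 11, and in TP+hucMSC-Exs 10 of 11 lay below both controls, as 1.63% of tested genes did. Ctrb1, chymotrypsinogen B, stood at 178569 and 170734 TPM in the TP+hucMSC-Exs rats, 176265 and 43276 TPM in TP rats, and 172127 and 156284 TPM in control rats. It thus exceeded Prss1 in both treated libraries and in TP replicate 1, where Prss1 stood at 161728 TPM. Ctrb1 was below Prss1 in both controls and in TP replicate 2, where Prss1 stood at 44279 TPM. Of the 6 acinar transcription factors and the 6 zymogen granule genes, limma called 0 in any comparison, where at most 0.209% of tested genes were called in 1 direction. At an unadjusted p below 0.05 it was also 0, against 0.0958% to 3.96% of tested genes. In TP+hucMSC-Exs, 4 of the 6 factors and 3 of the 6 granule genes lay above both TP libraries, as 5.09% of tested genes did, and 0 below. Against control 5 factors lay above and 0 below, and 3 granule genes above and 2 below, as 86.9% and 1.63% did. Among the factors, Gata4 stood at 7.93 and 8.79 TPM in the TP+hucMSC-Exs rats, 3.97 and 1.81 TPM in TP rats, and 3.89 and 4.31 TPM in control rats. Duct-cell markers, 5 genes, summed to 51.6 and 63.6 TPM in the TP+hucMSC-Exs rats, 4.05 and 10.8 TPM in TP rats, and 6.02 and 7.33 TPM in control rats, led by Krt19, and so were highest where Try5 was highest. Their part in the Try5 and LOC286960 levels was not tested.

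Over the 6 libraries the genes most like each trypsinogen are given as a description, since the points share 3 groups and TP replicate 2 has the lowest acinar content. Among 5225 named genes with a mean of at least 5 TPM, genes most like Prss1 included Tmem184a (Pearson r of log2 values 0.995, 6 libraries) and Aqp12a (r = 0.994). Prss2 was most like the elastase Cela2a (r = 0.996), then LOC100911564 and Prss3b. Prss3 was most like Clpsl2, a colipase-like gene (r = 0.979), followed by Cbs and Chac1. Clpsl2 stood at 5.61 and 5.87 TPM in the TP+hucMSC-Exs rats, 2.82 and 0.90 TPM in TP rats, and 13.3 and 18.4 TPM in control rats. Try5 was most like the glycine transporter Slc6a9 (r = 0.999), then the stress-induced gene Nupr1 (r = 0.980) and the tight-junction gene Cldn7 (r = 0.980). LOC286960 was most like Gata4, AC142181.2 and Serpina11 (r = 0.986 for each). Between members, r was 0.978 for Prss1 and Prss2 and 0.955 for Try5 and LOC286960, against 0.208 for Prss2 and Try5.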

How the data were processed

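Total RNA from 6 rat pancreases was made into libraries with a SMARTer mRNA kit, per the labels' protocols. The authors deposited gene-level TPM, 1 column per library. The program behind these values is not given. Mouse builds, GRCm38 and mm10, are named in the submitters' processing notes, yet 32883 genes carry rat Ensembl identifiers, and so no coordinates were taken from the table. RefSeq (GRCr8) gave gene order and promoters. TP columns carry a number that the labels do not explain and were matched by group name and replicate number. The deposited group means were not tested.

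Genes with a mean of at least 1 TPM were fitted as log2(TPM + 0.5) over all 6 libraries with limma 3.58.1 (R 4.3.3), using a trended prior variance with infinite prior and 3 residual degrees of freedom. Shares and ratios were computed per library and compared by exact two-sided permutation of libraries. The members, gene lists and alternatives were chosen with earlier results of these data known. Genes named were the members, the regulators of trypsin, leading genes of each list, other genes described as trypsin, and the 3 genes most like each member; not all are given, and 1 is not reported here. The series text counts 6 separate rats. No batch label was found.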

Additional observations from a re-analysis of the deposited data

How the results depend on the processing

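For the 15 member fold changes, 270 values under alternatives were computed: 220 kept their direction and side of the threshold, 25 lost a call, 21 gained one and 4 turned. Those 4, all in TP+hucMSC-Exs against TP, were Prss1 with quantile normalization (-0.11) and without TP replicate 2 (-0.15, against 1.72 without TP replicate 1), and Prss2 without TP replicate 2 (-0.46, against 1.31 without TP replicate 1) and divided by the other acinar enzymes (-0.19). The cause was not tested. The call of LOC286960 in TP+hucMSC-Exs against TP and that of Try5 against control were also lost with no variance trend (limma adjusted p = 1 and 0.0764) and with acinar enzymes taken out of the TPM total (0.405 and 0.234), and that of LOC286960 with only the groups compared (adjusted p = 1). Over all genes, limma called 6 in TP against control, 8 in TP+hucMSC-Exs against TP and 24 in TP+hucMSC-Exs against control. In TP against control the count was 14 with a pseudocount of 0.1, 2 after removing acinar enzymes from the TPM total, and 0 with no filter (160 at an unadjusted p below 0.05), median-of-ratios scaling (668), quantile normalization (642) or only the groups compared (85). Leaving out 1 library gave 0 to 10706. In TP+hucMSC-Exs against TP it was 21 after removing trypsinogens from the total, 4 after removing all acinar enzymes, 2 with median-of-ratios scaling, 1 with only the groups compared, and 0 with no filter (315) or quantile normalization (983). Leaving out 1 library gave 0 to 9537. In TP+hucMSC-Exs against control it was 12 with a pseudocount of 1, 8 without acinar enzymes, 7 divided by them, 2 with median-of-ratios scaling, 6056 with only the groups compared, and 0 with no filter (368) or quantile normalization (1100). Leaving out 1 library gave 1 to 6031. With the replicate number as a block the counts were 10, 22 and 35 in the same order of comparisons, and Prss3 in TP against control passed (limma adjusted p = 0.0143). Same-numbered libraries deviated together with r of 0.0804 to 0.279, which does not pair them. The log2 ratio of trypsinogens to other acinar enzymes, 0.28 in TP+hucMSC-Exs against TP, was 0.34 on TPM times gene length and 0.31 with a wider family total, and against control, at -0.17, it was -0.13 and -0.15. The divisor held Ctrb1 in all of these. That wider total held 18 genes, the members and every gene whose description holds trypsin but not chymotrypsin. It took in genes that are not trypsins, such as Itih4, and left out Prss3b. Without 1 library the difference in family share ranged from -19.7 to -6.65 percentage points in TP against control, from -0.431 to 12.6 in TP+hucMSC-Exs against TP and from -7.78 to -6.39 in TP+hucMSC-Exs against control. For the 15 member share differences, 95 values under alternatives moved by less than the replicate spread and 10 by more. The depth behind all values is unknown.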
